A study of Mus musculus with 3 samples.

Results

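Promoter H3K4me3 at the genes of the proteasome was examined in the mouse lung fibroblast line MLg (ATCC CCL-206). Genes were chosen by name: a peak entered where it lay within 2000 bp of a transcription start site (TSS) by the deposited distance and its gene name began with Psma, Psmb, Psmc, Psmd, Psme, Psmf or Psmg. This rule, which used no measured value, found 42 of the 9080 genes with a promoter peak in any library, and 114 of the 22802 peaks of the series. Psmc3ip, 1 of the 42, is a match by name alone, since it encodes a meiotic recombination protein and not a subunit. It was kept in all counts because the rule includes it. Each gene had a single promoter peak in each library that listed it, so the covered length of a promoter equals the length of that peak.

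The proteasome is the ATP-dependent protease that degrades ubiquitin-tagged proteins in the cytoplasm and the nucleus. Its core particle is a barrel of alpha and beta rings with the proteolytic sites inside, and its regulatory particle, built of a base with a ring of ATPases and of a lid, binds, deubiquitinates and unfolds substrates. The genes are active in nearly all cells and are known to be induced together by the transcription factor Nfe2l1 when proteasome activity is limiting. H3K4me3, trimethylation of lysine 4 of histone H3, marks the nucleosomes around the TSS of active promoters.

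The mark was mapped by ChIP-seq (antibody ab8580). The groups were TGFB1+miR-9-LOF, TGFB1 and Ctrl, with 1 library each of the same cell line, so differences could not be set against replicate error and no p-value is given. Cells of the TGFB1+miR-9-LOF group received an antagomiR against miR-9 (60 nM), a probe meant to cause loss of function of this microRNA, and TGFB1 (5 ng/ml) was added 20 h after transfection for 4 h. The TGFB1 group received TGFB1 at the same dose and for the same time, and the Ctrl group carries the treatment label WT. The paper describes the cells of this ChIP-seq as transfected with a control or a miR-9 antagomiR, with or without TGFB1. The recorded antagomiR dose is 60 nM for each library. The treatment labels of TGFB1 and Ctrl do not name the control probe, so its presence there rests on the paper's description. Of 12 fibroblast marker genes, 6 had a promoter peak in TGFB1+miR-9-LOF, 8 in TGFB1 and 8 in Ctrl, while none of 5 lung epithelial and none of 4 endothelial markers had one in any library. Of 4 immune markers, Cd14 had a peak in TGFB1 and in Ctrl. Col3a1, Thy1, Fap and Tcf21 were the fibroblast markers without a promoter peak in any library.

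The lists held 4959 peaks in TGFB1+miR-9-LOF, 9116 in TGFB1 and 8727 in Ctrl. The sequencing depth behind them is unknown here. No list held a peak under 1000 bp, so an absent gene had no listed peak of that length or more, which is not the same as no H3K4me3. The TGFB1+miR-9-LOF list also had shorter peaks than the others over all promoters, with a median of 1347 bp, against 1756 bp in TGFB1 and 1699 bp in Ctrl. Depth, ChIP enrichment and treatment cannot be told apart as sources of a difference that runs through a whole library.

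To show what lies under these peaks, the 120 bases before the RefSeq TSS are printed 5′ to 3′ for 8 genes on which the comparisons below turn. Psmd14, Psmd10 and Psmg4 had the largest TGFB1 over Ctrl increases and no peak in TGFB1+miR-9-LOF. Psmd9, Psmb5 and Psmb6 hold an antioxidant response element core in this stretch and had peaks in different sets of libraries. Psma2 had the largest decrease in TGFB1+miR-9-LOF, and Psmc6 was the only gene longer there than in TGFB1. Capitals mark matches on either strand to CCAAT, the CCAAT box, and to TGACNNNGC, the core of the antioxidant response element, which Nfe2l1 and Nfe2l2 bind. Sequences and coordinates are from RefSeq, build GRCm38.p6, the build called mm10.
Psmd14, chr2:61711574-61711693, plus strand: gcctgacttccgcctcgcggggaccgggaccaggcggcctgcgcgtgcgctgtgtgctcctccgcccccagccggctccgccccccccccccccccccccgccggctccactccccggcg
Psmd10, chrX:140956712-140956831, minus strand: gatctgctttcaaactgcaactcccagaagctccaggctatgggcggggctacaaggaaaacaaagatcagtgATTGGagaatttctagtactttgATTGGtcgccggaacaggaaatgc
Psmg4, chr13:34162844-34162963, plus strand: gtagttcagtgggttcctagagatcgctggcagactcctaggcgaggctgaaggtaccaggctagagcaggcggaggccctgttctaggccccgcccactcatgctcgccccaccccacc
Psmd9, chr5:123228070-123228189, plus strand: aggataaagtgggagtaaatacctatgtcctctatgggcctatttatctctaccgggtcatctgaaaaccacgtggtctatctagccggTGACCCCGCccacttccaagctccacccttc
Psmb5, chr14:54617996-54618115, minus strand: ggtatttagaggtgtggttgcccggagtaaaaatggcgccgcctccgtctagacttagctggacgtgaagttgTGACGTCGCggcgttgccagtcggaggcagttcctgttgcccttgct
Psmb6, chr11:70525237-70525356, plus strand: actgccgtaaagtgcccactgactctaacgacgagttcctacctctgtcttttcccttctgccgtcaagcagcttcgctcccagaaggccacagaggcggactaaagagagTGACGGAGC
Psma2, chr13:14613122-14613241, plus strand: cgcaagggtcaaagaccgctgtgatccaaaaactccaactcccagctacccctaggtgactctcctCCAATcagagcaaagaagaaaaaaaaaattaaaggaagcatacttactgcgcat
Psmc6, chr14:45329704-45329823, plus strand: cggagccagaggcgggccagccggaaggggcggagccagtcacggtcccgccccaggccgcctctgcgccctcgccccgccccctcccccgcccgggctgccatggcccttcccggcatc

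In these stretches, Psmd9, Psmb5 and Psmb6 carried the antioxidant core, which began 31, 47 and 9 bases before the TSS. Psmd10 carried CCAAT on the other strand at 47 and 24 bases before the TSS, and Psma2 carried it at 54 bases before. Psmd14, Psmg4 and Psmc6 held neither motif there. No match says only that these letters are not in this window.

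Over 250 bases before the TSS, 35 of the 42 genes could be matched to the RefSeq table. TGACNNNGC was present in 5 of 35 (14.3%), in Psmb5, Psmb6, Psmc6, Psmd9 and Psmd12. The share was 11.9% of the promoters whose TSS lay under a TGFB1 promoter peak and 10.2% of all promoters in the table. CCAAT was present in 12 of 35 (34.3%), against 35.6% under TGFB1 peaks and 33.8% of all. GGGCGG, the GC box, was present in 18 of 35 (51.4%), against 64.8% under TGFB1 peaks and 32.7% of all, and TATAAA, the TATA box, in 3 of 35 (8.57%), against 4.56% and 12.4%. The median GC content was 58.4%, against 62.0% under TGFB1 peaks and 52.4% of all, and the median ratio of observed to expected CpG was 0.77, against 0.80 and 0.37. The motif search covered both strands, and for each of the 4 motifs the 95% Wilson interval of the proteasome share included the share under TGFB1 peaks. Among matched genes, 8 lacked a peak in TGFB1+miR-9-LOF, counting Psmb5. TGACNNNGC was in 2 of these 8 and in 3 of the 27 with a peak, and CCAAT was in 4 of 8 and in 8 of 27.

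The promoter peaks of proteasome genes were of narrow to middle length. Their median was 1407 bp in TGFB1+miR-9-LOF (33 genes), 1771 bp in TGFB1 (41 genes) and 1672.5 bp in Ctrl (40 genes), close to the medians over all promoter peaks. None reached 2.7 kb, the study's limit for a broad domain, in any library. Over all promoter peaks, 0.0623% in TGFB1+miR-9-LOF, 2.08% in TGFB1 and 1.57% in Ctrl did. From 2 kb to under 2.7 kb, the study's medium class, stood 0 of 33 genes in TGFB1+miR-9-LOF, 6 of 41 in TGFB1 (14.6%) and 5 of 40 in Ctrl (12.5%), against 3.20%, 21.7% and 17.8% of all promoter peaks. The Wilson intervals of the TGFB1 and Ctrl shares, 6.88 to 28.4% and 5.46 to 26.1%, hold the values over all peaks. These intervals cover counting error only, and genes are not replicates. The median of the deposited peak score was 47 in TGFB1+miR-9-LOF, 105 in TGFB1 and 90.5 in Ctrl, against 46, 91 and 80 over all promoter peaks. Scores were computed by the authors within each list and are not scaled between libraries. The centre of the peak lay downstream of the TSS in 32 of 33 genes in TGFB1+miR-9-LOF, 37 of 41 in TGFB1 and 38 of 40 in Ctrl. Over all promoter peaks it did so in 88.7%, 89.4% and 89.3% in these libraries.

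**Figure D1:**
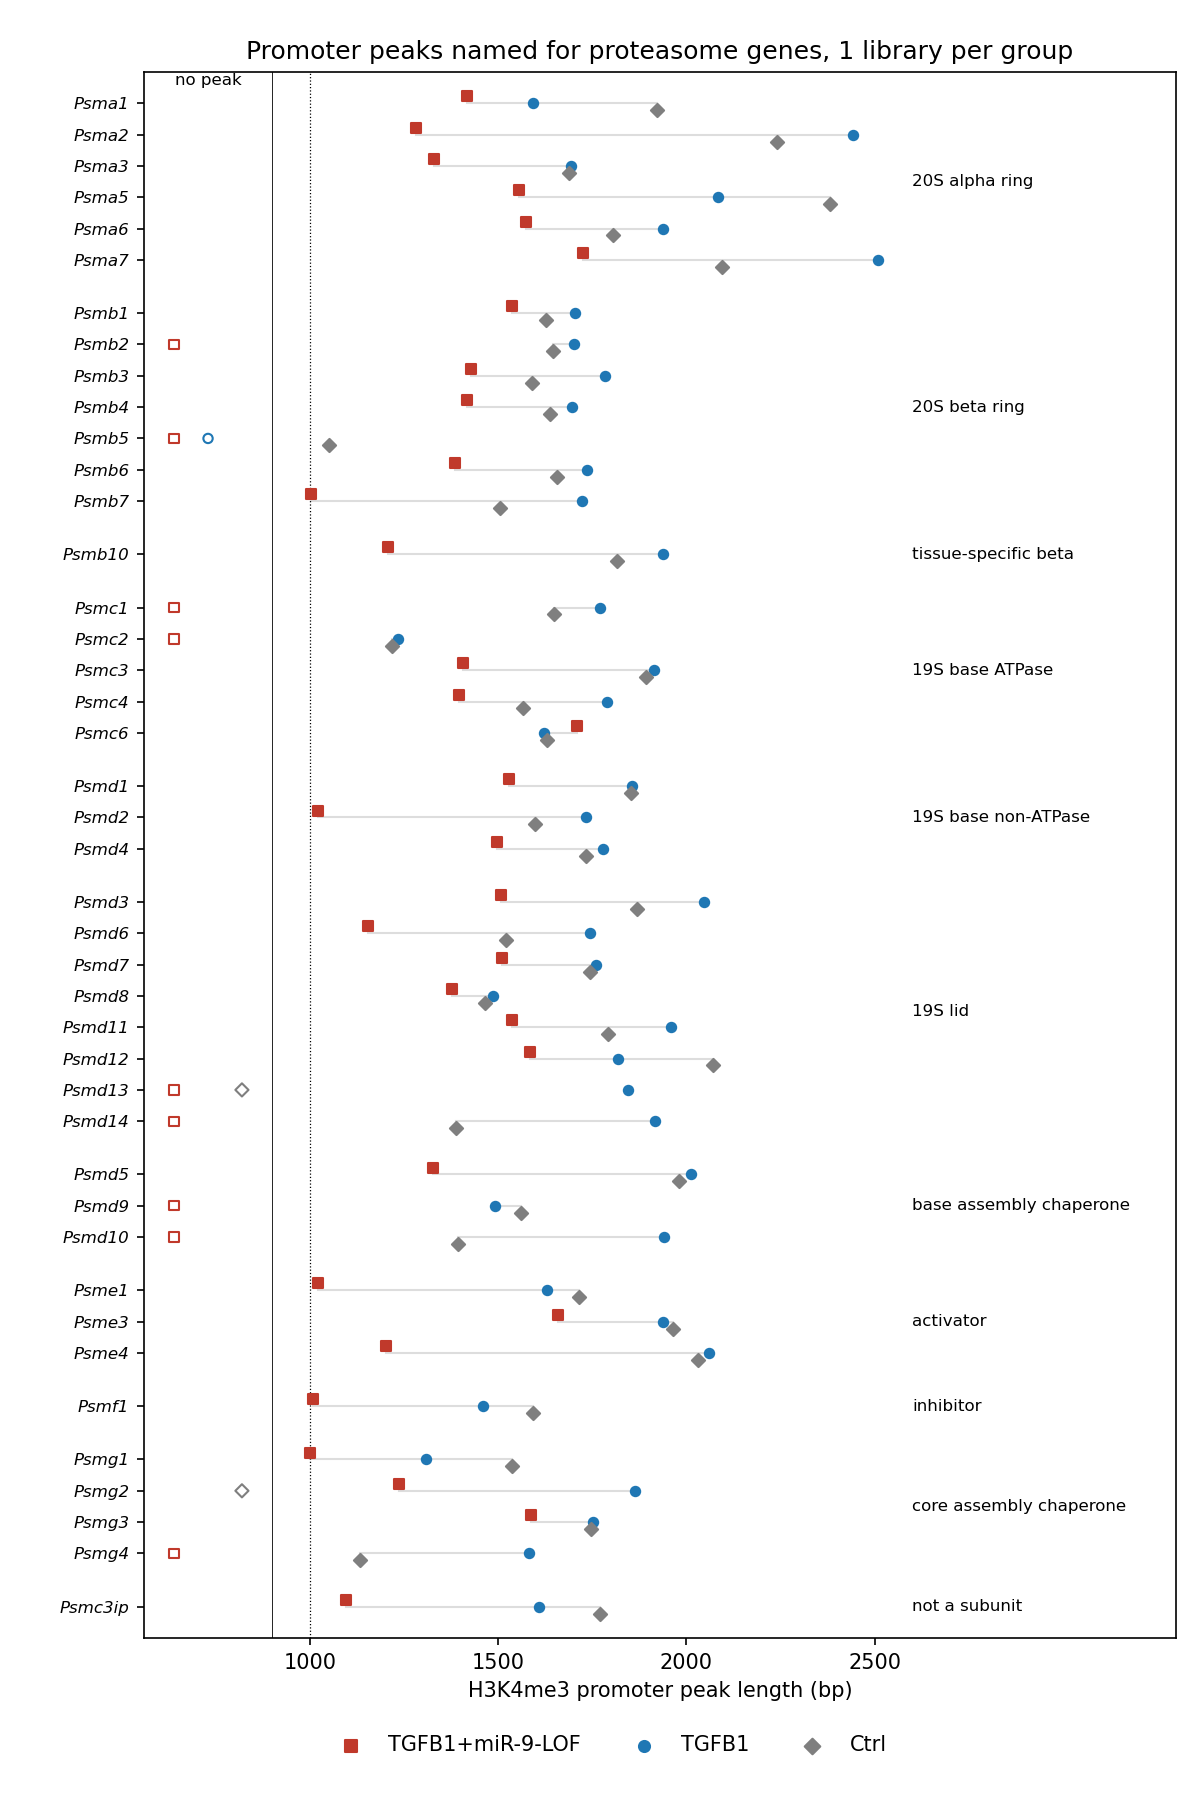
H3K4me3 promoter peak length in bp (horizontal axis) for the 42 genes, grouped by role, in TGFB1+miR-9-LOF (squares), TGFB1 (circles) and Ctrl (diamonds), 1 library each. Open symbols at the left stand for no peak with that gene's name, the dotted line is the 1000 bp length of the shortest listed peaks, and Psmc6 is the only gene whose square lies right of its circle.

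The alpha ring, which forms the gated outer rings of the core particle, had the longest median of the role groups with more than 1 gene in TGFB1 and in Ctrl, but not in TGFB1+miR-9-LOF. For its 6 named genes the median was 1486 bp in TGFB1+miR-9-LOF, 2011.5 bp in TGFB1 and 2008.5 bp in Ctrl. Psma7 spanned 1725 bp in TGFB1+miR-9-LOF, 2508 bp in TGFB1 and 2094 bp in Ctrl, and its peak was the longest of the 42 genes in TGFB1+miR-9-LOF and in TGFB1. It shares its start region with Ss18l1, a divergent coding gene. Psma2 had 1281 bp in TGFB1+miR-9-LOF, 2442 bp in TGFB1 and 2240 bp in Ctrl, and it shares its start region with Mrpl32, a gene of the mitochondrial ribosome. Psma5 had 1555 bp in TGFB1+miR-9-LOF, 2085 bp in TGFB1 and 2382 bp in Ctrl, the longest in Ctrl. Psma1, shorter in TGFB1 than in Ctrl like Psma5, had 1417 bp in TGFB1+miR-9-LOF, 1594 bp in TGFB1 and 1923 bp in Ctrl. Its score was higher in TGFB1, 149 against 98 in Ctrl, as was that of Psma5, 89 against 83. Over all genes with 1 promoter peak in each library, 69.4% had a higher score in TGFB1. Shorter with a higher score were 8 of 39 proteasome genes, against 1878 of 7413 over all such genes. Psma3 and Psma6 spanned 1329 bp and 1574 bp in TGFB1+miR-9-LOF, 1694 and 1938 bp in TGFB1, and 1689 and 1806 bp in Ctrl. All 6 alpha ring genes were shorter in TGFB1+miR-9-LOF than in TGFB1, where 98.4% of all genes with both peaks were. Psma3 was also the name of a distal peak, of 1199 bp at -6247 bp from the TSS in TGFB1 and 1190 bp at -5574 bp in Ctrl, which lies outside the promoter window.

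The beta ring holds the proteolytic sites. Psmb5, which encodes the chymotrypsin-like site, was the least covered gene of this ring, with no peak in TGFB1+miR-9-LOF, no peak in TGFB1 and 1052 bp with a score of 40 in Ctrl. That peak was little above the shortest length listed. Psmb6, the caspase-like site, had 1386 bp in TGFB1+miR-9-LOF, 1735 bp in TGFB1 and 1656 bp in Ctrl. Psmb7, the trypsin-like site, had 1004 bp in TGFB1+miR-9-LOF, 1724 bp in TGFB1 and 1504 bp in Ctrl. The 3 catalytic genes therefore differed in whether and how far they were covered in TGFB1+miR-9-LOF. Of the structural subunits, Psmb2 lacked a peak in TGFB1+miR-9-LOF and had 1701 bp in TGFB1 and 1647 bp in Ctrl. Psmb1, Psmb3 and Psmb4 kept 1418 to 1536 bp in TGFB1+miR-9-LOF. Psmb10, the immunoproteasome counterpart of Psmb7, had 1207 bp in TGFB1+miR-9-LOF, 1937 bp in TGFB1 and 1817 bp in Ctrl.

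The ATPases of the 19S base thread substrates into the core. Psmc6 had 1710 bp in TGFB1+miR-9-LOF, 1622 bp in TGFB1 and 1631 bp in Ctrl, with scores of 40, 83 and 109 in the same order. It was longest in TGFB1+miR-9-LOF but had its lowest score there. Psmc3 had 1407 bp in TGFB1+miR-9-LOF, 1913 bp in TGFB1 and 1894 bp in Ctrl, and Psmc4 had 1397, 1789 and 1565 bp in these libraries. Psmc1 lacked a peak in TGFB1+miR-9-LOF and had 1771 bp in TGFB1 and 1648 bp in Ctrl. The deposited distance of its peak was -1835 bp in TGFB1 and -1610 bp in Ctrl, near the limit of the rule. Its peak nevertheless spans the GENCODE TSS in both libraries, since the deposited TSS lies elsewhere. Psmc2 lacked a peak of its name in TGFB1+miR-9-LOF and had 1234 bp in TGFB1 and 1218 bp in Ctrl. The Psmc2 peak lies downstream of the gene's GENCODE TSS. Within 500 bp of that TSS, a peak named for the divergent gene Dnajc2 spanned 1005 bp in TGFB1+miR-9-LOF, 1259 bp in TGFB1 and 1110 bp in Ctrl. Only in TGFB1 did this peak reach the TSS itself.

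The remaining base subunits are scaffolds and a ubiquitin receptor. Psmd1, a scaffold of the base, had 1530 bp in TGFB1+miR-9-LOF, 1855 bp in TGFB1 and 1854 bp in Ctrl. Psmd2, the other large scaffold, had 1021 bp in TGFB1+miR-9-LOF, 1734 bp in TGFB1 and 1598 bp in Ctrl. Psmd4, the ubiquitin receptor, had 1496 bp in TGFB1+miR-9-LOF, 1779 bp in TGFB1 and 1733 bp in Ctrl. These 3 genes were thus shortest in TGFB1+miR-9-LOF, Psmd2 by the largest margin.

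The lid includes the deubiquitinase Psmd14. Psmd14 lacked a peak in TGFB1+miR-9-LOF and had 1916 bp in TGFB1 and 1388 bp in Ctrl. Its partner in the catalytic dimer, Psmd7, had 1511 bp in TGFB1+miR-9-LOF, 1761 bp in TGFB1 and 1744 bp in Ctrl. The enzyme and its partner thus differed in TGFB1+miR-9-LOF. Psmd12, a structural subunit of the lid, had 1585 bp in TGFB1+miR-9-LOF, 1818 bp in TGFB1 and 2070 bp in Ctrl. Psmd13, another structural lid subunit, had a peak of its name in TGFB1 alone, of 1845 bp with a score of 131. That was a matter of naming: a peak at the same start region carried the name of the divergent gene Sirt3, of 1211 bp in TGFB1+miR-9-LOF and 2073 bp in Ctrl. Psmd3, Psmd6, Psmd8 and Psmd11 ranged between 1156 and 1538 bp in TGFB1+miR-9-LOF, 1486 and 2047 bp in TGFB1, and 1466 and 1868 bp in Ctrl.

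Of the 7 assembly chaperones with a TGFB1 peak, 3 lacked one in TGFB1+miR-9-LOF, where 46.3% of all genes with a TGFB1 peak lacked one. Of the base chaperones, Psmd9 lacked a peak in TGFB1+miR-9-LOF and had 1491 bp in TGFB1 and 1560 bp in Ctrl. Psmd10, which encodes gankyrin, lacked a peak in TGFB1+miR-9-LOF and had 1940 bp in TGFB1 and 1395 bp in Ctrl. Its score was lower in TGFB1, 55 against 69 in Ctrl, although its peak was longer. Psmd10 shares its start region with Atg4a, a divergent coding gene. The third, Psmd5, kept 1328 bp in TGFB1+miR-9-LOF, against 2011 bp in TGFB1 and 1981 bp in Ctrl. Of the core chaperones, Psmg4 lacked a peak in TGFB1+miR-9-LOF and had 1581 bp in TGFB1 and 1134 bp in Ctrl. Its scores were low, 50 in TGFB1 and 49 in Ctrl. Psmg1 had 1000 bp in TGFB1+miR-9-LOF, the shortest length listed, 1308 bp in TGFB1 and 1537 bp in Ctrl. Psmg3 had 1588 bp in TGFB1+miR-9-LOF, 1751 bp in TGFB1 and 1746 bp in Ctrl. Psmg2 had 1238 bp in TGFB1+miR-9-LOF, 1863 bp in TGFB1 and no peak of its name in Ctrl, where a peak of 2423 bp at the same start region was named for the divergent gene Cep76.

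Activators and the inhibitor dock to the core in place of the 19S particle or hinder it. Psme4, a nuclear activator, had 1203 bp in TGFB1+miR-9-LOF, 2061 bp in TGFB1 and 2031 bp in Ctrl. Psme1, an interferon-inducible activator, had 1023 bp in TGFB1+miR-9-LOF, 1631 bp in TGFB1 and 1714 bp in Ctrl. Psme3, a nuclear activator, had 1660 bp in TGFB1+miR-9-LOF, 1939 bp in TGFB1 and 1964 bp in Ctrl. Psme3 had the smallest decrease of the 3 activators in TGFB1+miR-9-LOF. Psmf1, the inhibitor, had 1008 bp in TGFB1+miR-9-LOF, 1459 bp in TGFB1 and 1593 bp in Ctrl. Psmc3ip, which is no subunit, had 1095 bp in TGFB1+miR-9-LOF, 1608 bp in TGFB1 and 1770 bp in Ctrl.

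By the GENCODE M21 annotation, 50 coding genes carry such names, and 8 had no peak of their own name. At 3 of these the start region was covered under a neighbour's name. Psma4, of the alpha ring, lay under a peak named AY074887, absent in TGFB1+miR-9-LOF, of 1602 bp in TGFB1 and 1655 bp in Ctrl. Psmb9, an immunoproteasome site, lay under a peak named Tap1 of 1284 bp in TGFB1+miR-9-LOF, 1587 bp in TGFB1 and 1354 bp in Ctrl. Psme2, the partner of Psme1, lay under a peak named Rnf31 of 1302 bp in TGFB1+miR-9-LOF, 2403 bp in TGFB1 and 2290 bp in Ctrl. No peak lay within 500 bp of the TSS of Psma8, which is specific to testis, of Psmb8 and Psmb11, of the immuno- and thymoproteasome, of Psmc5 or of Psme2b. By annotated TSS, then, 37 of the 50 genes had a peak within 500 bp in TGFB1+miR-9-LOF, 44 in TGFB1 and 45 in Ctrl. A divergent coding gene started within 1000 bp of 6 of the 41 genes with a TGFB1 peak (14.6%, against 11.7% of all named coding genes).

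The first comparison sets TGFB1 against Ctrl, to see how these promoters differ after TGFB1 treatment. Of 39 genes with a peak in both, 29 were longer in TGFB1 and 10 shorter, and 64.2% of all genes with a peak in both were longer. The median log2 ratio of length was 0.04 (95% order-statistic interval 0.00 to 0.10), against 0.06 over all genes. A difference of 1.2 times or more was called. Psmg4 (log2 0.48), Psmd10 (0.48) and Psmd14 (0.47) were longer by this rule, 3 of 39 genes or 7.69%, where 14.5% of all genes were. Psma1 was shorter (-0.27), 1 of 39, where 4.93% of all genes were. Below the rule followed Psma7 at 0.26, and Psmg1, Psma5 and Psmd12 at -0.23, -0.19 and -0.19. By name, Psmd13 and Psmg2 were gained, 2 of 42 genes, where 8.06% of all genes were gained, and both start regions were covered in Ctrl under a neighbour's name. Psmb5 was lost, 1 of 40 genes, where 4.88% of all genes were lost. Each of these proteasome shares had a 95% Wilson interval that held the share over all genes. The score and the length moved in opposite directions in 17 of 39 genes (43.6%), against 44.7% of all genes. The upstream edge lay further out by a median of 35 bp (interval 13 to 97 bp) and the downstream edge moved by -10 bp (-92 to 92 bp), against 34 and 29 bp over all genes.

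The second comparison sets TGFB1+miR-9-LOF against TGFB1, to see how the promoters differ when miR-9 is inhibited under TGFB1. Of the 41 genes with a TGFB1 peak, 33 had a peak in TGFB1+miR-9-LOF and 8 did not: Psmb2, Psmc1, Psmc2, Psmd9, Psmd10, Psmd13, Psmd14 and Psmg4. The lost share was 19.5% (Wilson interval 10.2 to 34.0%), where 46.3% of all genes with a TGFB1 peak were lost. As given above, the start region of Psmd13 stayed covered under another name. Near Psmc2, the peak named for Dnajc2 lay within 500 bp of the TSS in TGFB1+miR-9-LOF but did not reach it. The lost genes span the beta ring, the base, the lid and the chaperones, and none of the 6 named alpha ring genes and none of the 3 activators was among them, although the start region of Psma4, covered in TGFB1 under another name, was uncovered in TGFB1+miR-9-LOF.

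Of the 33 genes kept, 32 were shorter in TGFB1+miR-9-LOF, where 98.4% of all genes were, and 23 were shorter by 1.2 times or more (69.7%), where 81.5% of all genes were. That count depends on the scaling. With lengths divided by each library's median promoter peak length it was 6 of 33, and 2 were longer. No share over all genes is given here for that scaling. The median log2 ratio was -0.36 (interval -0.54 to -0.28), against -0.48 over all genes, a value inside that interval. The largest decreases were those of Psma2 (-0.93), Psmb7 (-0.78), Psme4 (-0.78) and Psmd2 (-0.76). The smallest were those of Psmd8 (-0.11), Psmg3 (-0.14) and Psmb1 (-0.15), and Psmc6 increased in length (0.08). The value for Psmb1 holds for the peak of its own name. By annotated TSS a peak named Tbp was added in TGFB1 and in Ctrl but not in TGFB1+miR-9-LOF, and the ratio was -1.05. The order of Psmb7 and of other genes near 1000 bp is limited by the shortest length listed. Scores were lower in TGFB1+miR-9-LOF in all 33 genes, with a median ratio of 0.427, against 0.429 over all genes. The shift runs through the whole library: the same scaling moved the median over all genes by 0.38 on the log2 scale. The proteasome median stood 0.13 above that of all genes, a difference that such a scaling cannot change, and under the scaling the proteasome median itself changed sign to 0.03. Other settings made the difference smaller: 0.03 with peaks within 500 bp of the TSS, 0.07 with scores of at least 50 and 0.09 by annotated TSS.

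**Figure D2:**
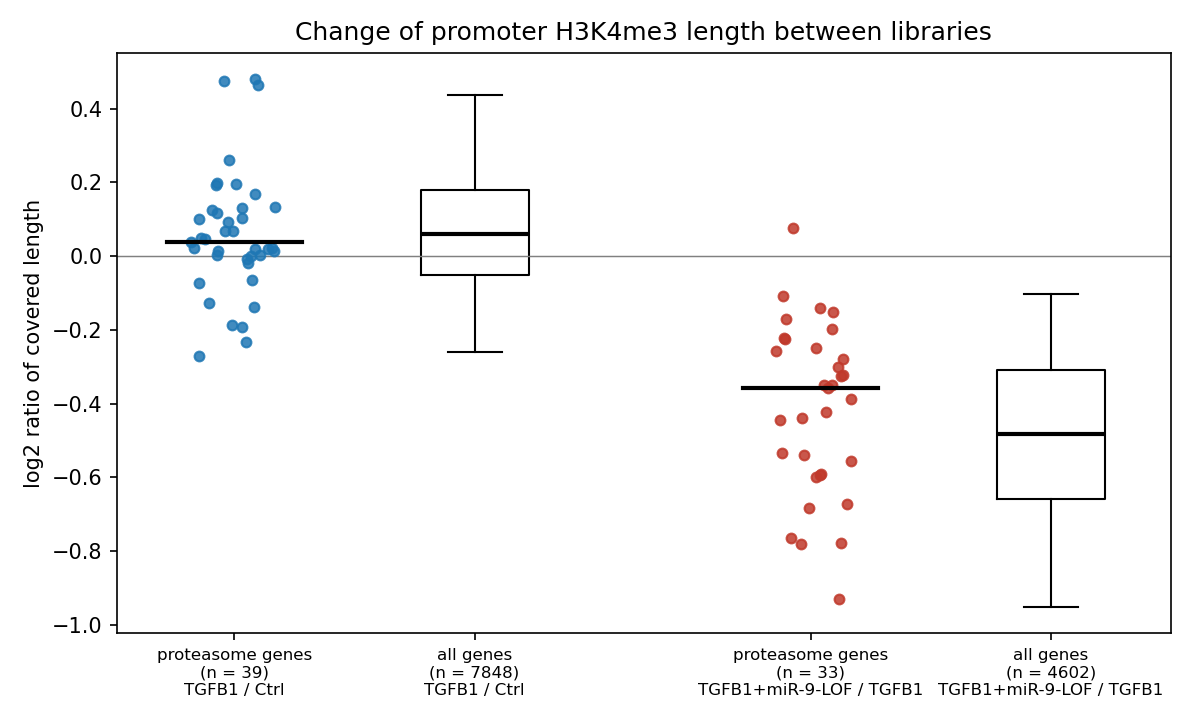
Log2 ratio of promoter peak length (vertical axis) for proteasome genes (points, black bar at the median) beside all genes with a peak in both libraries (box, quartiles and median, whiskers at the 5th and 95th percentiles). The left pair is TGFB1 over Ctrl, with medians of 0.04 and 0.06, and the right pair is TGFB1+miR-9-LOF over TGFB1, with medians of -0.36 and -0.48.

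Weak peaks were lost more often over all genes, so the kept share was also read by quintile of the TGFB1 score. From the lowest to the highest quintile, 2 of 5, 3 of 3, 8 of 12, 8 of 8 and 12 of 13 proteasome genes were kept, against 12.2%, 34.4%, 56.7%, 76.3% and 90.8% of all genes. The proteasome share was higher in each quintile, but its Wilson interval excluded the value over all genes only in the second, which held 3 genes. The kept genes had a median TGFB1 score of 110 and the lost genes 85, against 111 and 68 over all genes. Psmd13, with a score of 131, was the gene of the highest quintile that was not kept under its own name.

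**Figure D3:**
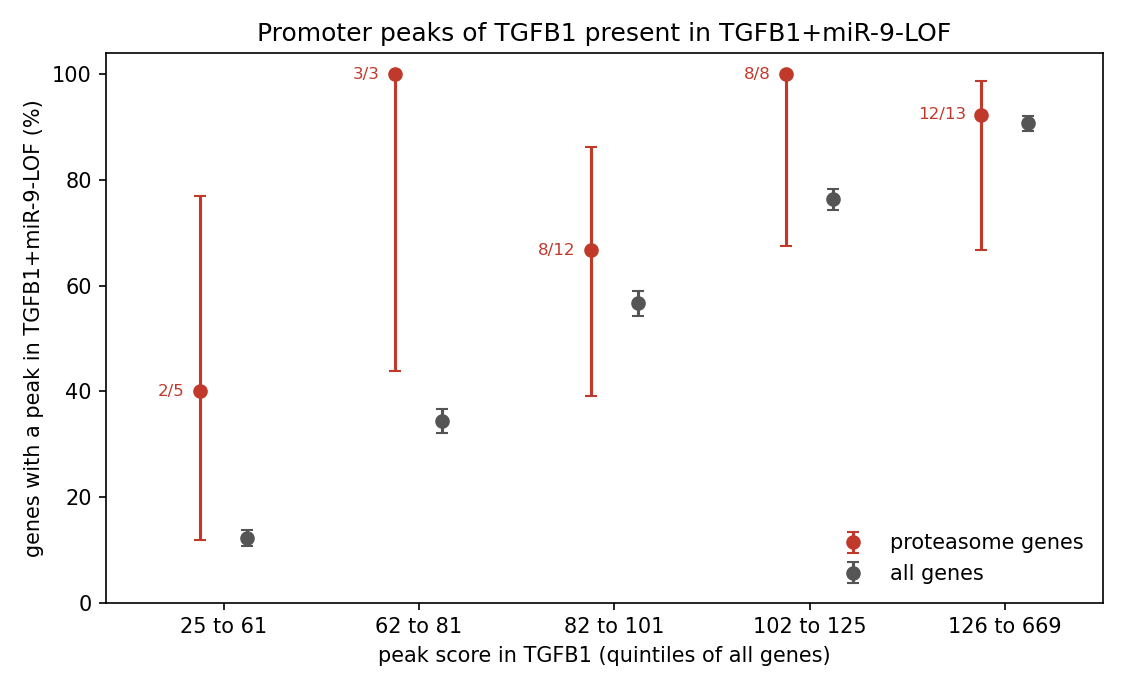
Percentage of genes with a TGFB1 promoter peak that also had one in TGFB1+miR-9-LOF (vertical axis), by quintile of the TGFB1 peak score (horizontal axis), for proteasome genes (red, kept over total beside each point) and all genes (grey). Bars are 95% Wilson intervals, and the wide bars of the proteasome genes, which number 3 to 13 per quintile, hold the all-gene value in every quintile but the second.

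The shortening came from both sides of the TSS. The upstream edge shifted by a median of -171 bp, where negative means inward (interval -251 to -121 bp), and the downstream edge by -217 bp (-324 to -108 bp), against -259 and -234 bp over all genes. Both edges moved in at 26 of 33 genes (78.8%), against 80.8% of all genes. At Psma2 the reach upstream was 663 bp in TGFB1+miR-9-LOF, 1239 bp in TGFB1 and 1215 bp in Ctrl, and the reach downstream was 617, 1202 and 1024 bp in these libraries. Both sides of this divergent promoter were therefore shorter. At Psmb7 the upstream reach was 235 bp in TGFB1+miR-9-LOF, 262 bp in TGFB1 and 249 bp in Ctrl, while the downstream reach was 768, 1461 and 1254 bp, so that the loss lay downstream. At Psme1 it lay upstream, with a reach of 278 bp in TGFB1+miR-9-LOF, 801 bp in TGFB1 and 757 bp in Ctrl, and a downstream reach of 744, 829 and 956 bp. At Psme4 the upstream reach was -483 bp in TGFB1+miR-9-LOF, so that the peak began downstream of the TSS, against 227 bp in TGFB1 and 232 bp in Ctrl. Psmb10 likewise had an upstream reach of -86 bp in TGFB1+miR-9-LOF, against 129 bp in TGFB1 and 111 bp in Ctrl. Psmc6 had a downstream reach of 1392 bp in TGFB1+miR-9-LOF, 1220 bp in TGFB1 and 1286 bp in Ctrl, and an upstream reach of 317, 401 and 344 bp.

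**Figure D4:**
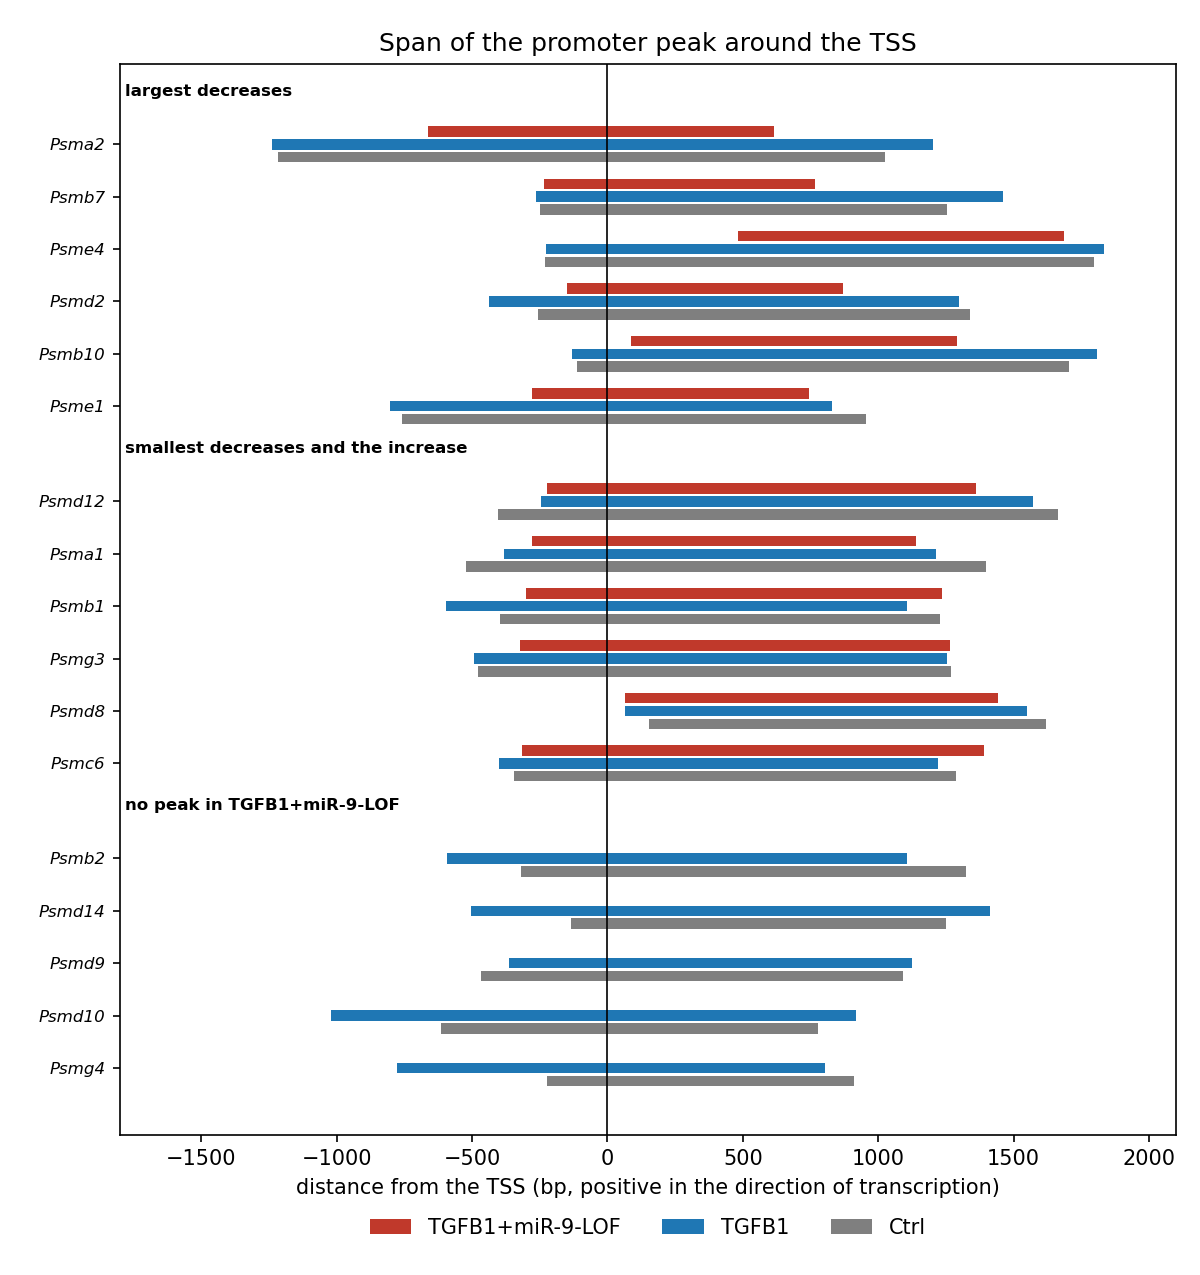
Span of the promoter peak relative to the GENCODE TSS at 0 (horizontal axis, bp, positive in the direction of transcription) in TGFB1+miR-9-LOF (red), TGFB1 (blue) and Ctrl (grey). Shown are the 6 genes with the largest decreases in TGFB1+miR-9-LOF over TGFB1, the 6 at the other end of that order, of which Psmc6 increased, and 5 genes with TGFB1 and Ctrl peaks but no peak in TGFB1+miR-9-LOF, where Psmd14, Psmd10 and Psmg4 reach further upstream in TGFB1 than in Ctrl. Psmc1 and Psmc2 are left out of the last set because their deposited TSS lay over 500 bp from the GENCODE TSS.

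The third comparison sets TGFB1+miR-9-LOF against Ctrl and shares a library with each of the others. Of 40 genes with a Ctrl peak, 8 were lost (20.0%), where 44.4% of all genes were. Of 32 genes with both, 19 were shorter by 1.2 times or more (59.4%), where 73.9% of all genes were. With scaled lengths, for which no share over all genes is given here, 8 were shorter and 1 longer. The median log2 ratio was -0.33, against -0.42 over all genes. Psma2 (-0.81), Psme4 (-0.76), Psme1 (-0.74) and Psmc3ip (-0.69) had the largest decreases, and Psmc6 (0.07) was again the single increase. Psmd14, Psmd10 and Psmg4, the genes longest in TGFB1 relative to Ctrl, were absent from TGFB1+miR-9-LOF in both comparisons, which share that library. Under the annotated TSS, 8 of 45 genes were lost (17.8%), against 41.3% of all genes assigned in that way.

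A list of 29 partner genes, chosen as acting with the proteasome, was read beside it. It holds genes that deliver, tag or release substrates, but also transcription factors and the assembly chaperone Pomp. It also holds Adrm1 and Sem1, subunits of the regulatory particle whose names fall outside the naming rule. Of the 29 genes, 25 had a promoter peak. In TGFB1 over Ctrl, 20 were longer (80.0%, where 64.2% of all genes were) and 5 shorter, and 4 were longer by 1.2 times or more (16.0%, where 14.5% of all genes were), which included Uba1 (log2 0.71), an enzyme that activates ubiquitin, and Ufd1 (0.59), a partner of Vcp. The median was 0.10. In TGFB1+miR-9-LOF over TGFB1, 7 of 25 were lost (28%, where 46.3% of all genes were), among them Ubqln1 and Ubqln2, which carry ubiquitinated substrates to the proteasome, Ufd1 and Uba1. Of the 18 kept, 16 were shorter by 1.2 times or more (88.9%, where 81.5% of all genes were), and the median was -0.68. Nfe2l1, the transcription factor of proteasome genes, had 1946 bp in TGFB1+miR-9-LOF, 1853 bp in TGFB1 and 1756 bp in Ctrl. Its relative Nfe2l2 had 1288 bp in TGFB1+miR-9-LOF, 2278 bp in TGFB1 and 2382 bp in Ctrl. Pomp, a chaperone of core assembly, had 1434 bp in TGFB1+miR-9-LOF, 2011 bp in TGFB1 and 1779 bp in Ctrl. The median decrease of this list was thus larger than the -0.36 of the proteasome genes and the -0.48 of all genes, a difference that was not tested. The list is not separate from the proteasome, since it includes the subunits Adrm1 (-0.32 in TGFB1+miR-9-LOF over TGFB1) and Sem1 (-0.62).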

How the data were processed

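H3K4me3 ChIP-seq peak lists of 3 libraries, 1 per group, were used. The submitters' processing notes name the build mm10 and the tools HOMER, bedtools, MACS3, Bowtie2, Trimmomatic, deepTools 3.5.1 and Picard 1.119. Broad peak calling with a fragment extension of 1000 bp is stated in the study's methods for CUT&Tag and in its reporting summary. The input control is not given in the sources used here. The deposited lists hold peak start, end, distance to TSS, gene name and a peak score computed by the authors. The score was used within a list, as a ratio beside all genes, and for its direction of change between lists. Scores of single genes set side by side between lists are unscaled, and no change of the mark is read from them. Depth is unknown, and it limits how many peaks are called and how long they are.

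Length was end minus start plus 1 bp. Promoter peaks lay within 2000 bp of a TSS. A gene with a peak in the first library alone was gained, and in the second library alone lost. Edges used GENCODE M21 start sites. The medians carry order-statistic intervals and the shares Wilson intervals at 95%. Motifs were searched in RefSeq promoters. Alternatives were a score of at least 50, peaks within 500 bp, the widest single peak, 50% of the shorter peak shared, scaled lengths and genes assigned by annotated TSS. Members, partner list and marker lists were chosen with earlier results of these data known. Of the 32 symbols of the partner list, 3 were older names of listed genes by the RefSeq table. Some values of this list are not reported here. Every member could be named. All 3 library values are given for genes absent in a library, the 4 largest changes per contrast, the 3 longest and 3 shortest per library and at least 1 gene per role. The counting was tested on simulated data. Python 3.11.15, pandas 2.3.3, numpy 2.4.6, scipy 1.17.1, statsmodels 0.14.6 and matplotlib 3.10.9 were used.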

Additional observations from a re-analysis of the deposited data

How the results depend on the processing

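Lengths divided by each library's median promoter peak length turned the direction of the proteasome medians, to -0.0098 (TGFB1 over Ctrl), 0.0257 (TGFB1+miR-9-LOF over TGFB1) and 0.0081 (TGFB1+miR-9-LOF over Ctrl), since the all-gene medians moved by 0.38 and 0.33 in the last 2. With it, Psma3 (0.0325), Psma6 (0.0824), Psmb3 (0.0596), Psmb6 (0.0585), Psmc4 (0.0257), Psmd1 (0.10) and Psmd11 (0.0327) in TGFB1+miR-9-LOF over TGFB1, and Psma7 (0.0553), Psmd1 (0.0578) and Psmd3 (0.027) in TGFB1+miR-9-LOF over Ctrl, turned to longer. With peaks within 500 bp of the TSS, the proteasome median minus that of all genes was -0.0078 in TGFB1+miR-9-LOF over Ctrl, against 0.0346 by annotated TSS, 0.0543 with scores of at least 50 and 0.09 in the other settings. Genes shorter by 1.2 times or more numbered 6 of 33 with scaled lengths, 9 of 15 with scores of at least 50 and 15 of 20 with peaks within 500 bp in TGFB1+miR-9-LOF over TGFB1, and 8 of 32, 9 of 15 and 11 of 19 in TGFB1+miR-9-LOF over Ctrl. Shares over all genes are not given here for these settings, so these counts cannot be read as particular to proteasome genes. The all-gene shares of 81.5% and 73.9% above belong to the main setting. With scores of at least 50, 26 of 41 genes were lost in TGFB1+miR-9-LOF over TGFB1 (63.4%, against 76.0% of all). In TGFB1+miR-9-LOF over Ctrl, 22 of 37 were lost (59.5%, against 74.1% of all). One score limit need not be equally strict in each library. The kept share of TGFB1 genes stood above that of all genes in every setting tried, from 36.6% against 24.0% (score) to 84.1% against 56.5% (annotated TSS). Medians, differences from all genes and lost counts of the TGFB1+miR-9-LOF comparisons were labelled under alternatives by a tolerance, not by equal values. Of these, 42 stayed within it, 4 turned and 2 moved, and of the other counts 41 stayed within it and 19 moved. In TGFB1+miR-9-LOF over TGFB1, the difference of 0.13 from all genes was counted as staying at 0.03 with peaks within 500 bp. The lost count of 8 there was counted as staying at 7 by annotated TSS and at 9 with peaks within 500 bp. The labels therefore do not show that values were unchanged. No replicate could be left out with 1 library per group. No paired analysis was possible because each group has 1 library. Depth and enrichment of the libraries were not tested as causes.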
